A study of Mus musculus with 4 samples.

Results

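The subject is a set of 10 genes that p53 is known to induce outside the apoptotic programme, measured in mouse neural stem cells. The iKO cells carry a recombinase for deleting Seh1, the gene of a nuclear pore and GATOR2 subunit, and the Ctrl label names no recombinase. The genes, Sesn1, Sesn2, Ddit4l, Phlda3, Ak1, Dcxr, Ephx1, Plk2, Btg2 and Psrc1, were selected on their known roles together with the expression ratios of iKO to Ctrl in these libraries, out of 17621 genes in the files. All 10 were among the 12976 genes whose mean over the libraries reached 1 CPM, a count scaled to library size. Because the expression values helped to choose the genes, those values are given as a description.

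RNA was sequenced from cultures of primary neural stem cells of newborn mouse cortex, 1 library per group and 4 libraries in all. The iKO cells have the genotype cmv-cre-ert,seh1 f/f, in which a CMV promoter drives a Cre recombinase fused to an oestrogen receptor domain, and the Ctrl cells have the genotype Seh1 f/f. Both genotypes therefore carry floxed Seh1. Cells of each genotype were taken from growth medium that contained EGF and bFGF (day 0) and 3 days after both factors were withdrawn to start differentiation (day 3). The label of the Ctrl cells names no recombinase, so effects of losing Seh1 and of carrying the recombinase cannot be told apart. No source used here gives the inducer, the number of animals behind a culture or any pooling. With 1 library per group there was no replicate check, no test was run, and every interval below is a 95% interval of counting error only. In bulk RNA, fewer cells of a type and less RNA per cell cannot be told apart.

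The p53 protein is a transcription factor that is stabilised by DNA damage and other stress. Besides genes of cell death it switches on genes that slow the cell cycle and genes that adjust metabolism. Among the metabolic targets, the sestrins bind the GATOR2 complex and through it restrain mTORC1, the kinase complex that links amino acid supply to growth. Seh1 is itself a subunit of GATOR2, and both GATOR2 and the sestrins act upstream of the Rag GTPases. In the embryonic cortex Btg2 is also known as a mark of progenitors that are about to make neurons.

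The p53 response element consists of a pair of 10-base units that may be separated by a spacer, each with a fixed C and a fixed G around a central A/T-rich core. RefSeq promoter windows of GRCm38.p6, from 250 bases before to 50 bases after a start, were available for all 10 genes, 15 windows in total. Both strands were searched for the full p53 element with at most 3 mismatches, none of them at the C or G of either unit, and at most 1 base between the units. A match lay in 2 of the 15 windows (13.3%), against 928 of the 32851 windows of all genes (2.82%) and 9 of the 39 windows of other p53 targets (23.1%). The matches are shown with 20 bases on each side, the element in capitals, on the strand of the gene. That of Sesn1 lies at chr10:41887246-41887305 (plus strand, flanks included), upstream of the downstream start of the gene, with its first base 173 bases before the start, 0 mismatches in its first unit and 3 in its second. That of Dcxr lies at chr11:120727366-120727426 (minus strand, flanks included), 122 bases before the start, with 1 mismatch in its first unit, 2 in its second and 1 base between them. A search of the 250 upstream bases for a single 10-base unit without mismatches, added after the first result was seen, found that unit in 2 of the 15 windows (13.3%), against 7.13% of all windows. One of these is the first unit of the Sesn1 match, and the other lies 90 bases before the start of Ddit4l at chr3:137623572-137623601 (plus strand, 10 bases of flank on each side). The 3 promoters are printed because they hold a match, and because the RNA of Sesn1 was level between the genotypes at day 3 while that of Dcxr and Ddit4l was not.
Sesn1 promoter: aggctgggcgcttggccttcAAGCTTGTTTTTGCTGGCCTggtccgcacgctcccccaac
Dcxr promoter: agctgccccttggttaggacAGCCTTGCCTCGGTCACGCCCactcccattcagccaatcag
Ddit4l promoter: caactcccagGGGCTTGCCTgggcccctgc

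These matches describe letters only. The windows of the other 7 genes held no match, which says only that these letters are not in those windows, and binding was not measured here.

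The libraries held between 19611747 and 21040586 expected counts. Seh1l, the gene of Seh1, had 19.2 CPM in iKO and 40.3 CPM in Ctrl at day 0, and 11.03 CPM in iKO and 33.2 CPM in Ctrl at day 3, so it was lower in iKO by 2.10-fold at day 0 and by 3.01-fold at day 3. The oestrogen receptor gene Esr1, a domain of which is part of such a recombinase fusion, had 1924 and 2311 counts in the iKO libraries at day 0 and day 3, against 1 and 2 in the Ctrl libraries. All 7 neural stem and progenitor markers were detected, with a summed level of 5899 CPM in iKO and 5798 CPM in Ctrl at day 0. Astrocyte markers summed to 3386 CPM in iKO and 2097 CPM in Ctrl at day 0, and to 24023 CPM in iKO and 17290 CPM in Ctrl at day 3. Neuronal markers summed to 931 CPM in iKO and 1732 CPM in Ctrl at day 3, and oligodendrocyte lineage markers to 3441 CPM in iKO and 4719 CPM in Ctrl. The part of these marker differences in the results below was not tested. No endothelial marker of 5 and 1 microglial marker of 5 reached a mean of 1 CPM. Of 7 fibroblast and mural cell markers 4 did, and the 7 summed to 20.3 CPM in iKO and 7.77 CPM in Ctrl at day 0, and to 10.02 CPM in iKO and 13.9 CPM in Ctrl at day 3.

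At day 0 all 10 genes had a higher level in iKO than in Ctrl, against 5647 of all 12976 genes, but most by little. The counting interval of the Sesn1 ratio included equality (0.925 to 1.17). A 2-fold ratio or more, measured on the log2(CPM + 1) scale and used here to call a gene higher or lower, was met by 2 of the 10 (Sesn2 and Dcxr), against 2.67% of the 12976 genes that were higher and 0.331% that were lower. The median log2 ratio of iKO to Ctrl was 0.66 over the 10 genes and -0.06 over all genes. At day 3 the ratios were wider: 7 of the 10 genes were higher in iKO by at least 2-fold and 0 lower, against 6.27% of all genes higher and 4.76% lower. The median log2 ratio at day 3 was 2.08 over the 10 genes and -0.01 over all genes. These contrasts helped to choose the genes, so the counts are not read against the background. The 3 genes that were not called at day 3 were Sesn1, Plk2 and Btg2. Of the 10 genes only Btg2 had a lower level in iKO at day 3, against 6659 of all 12976 genes.

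**Figure D1:**
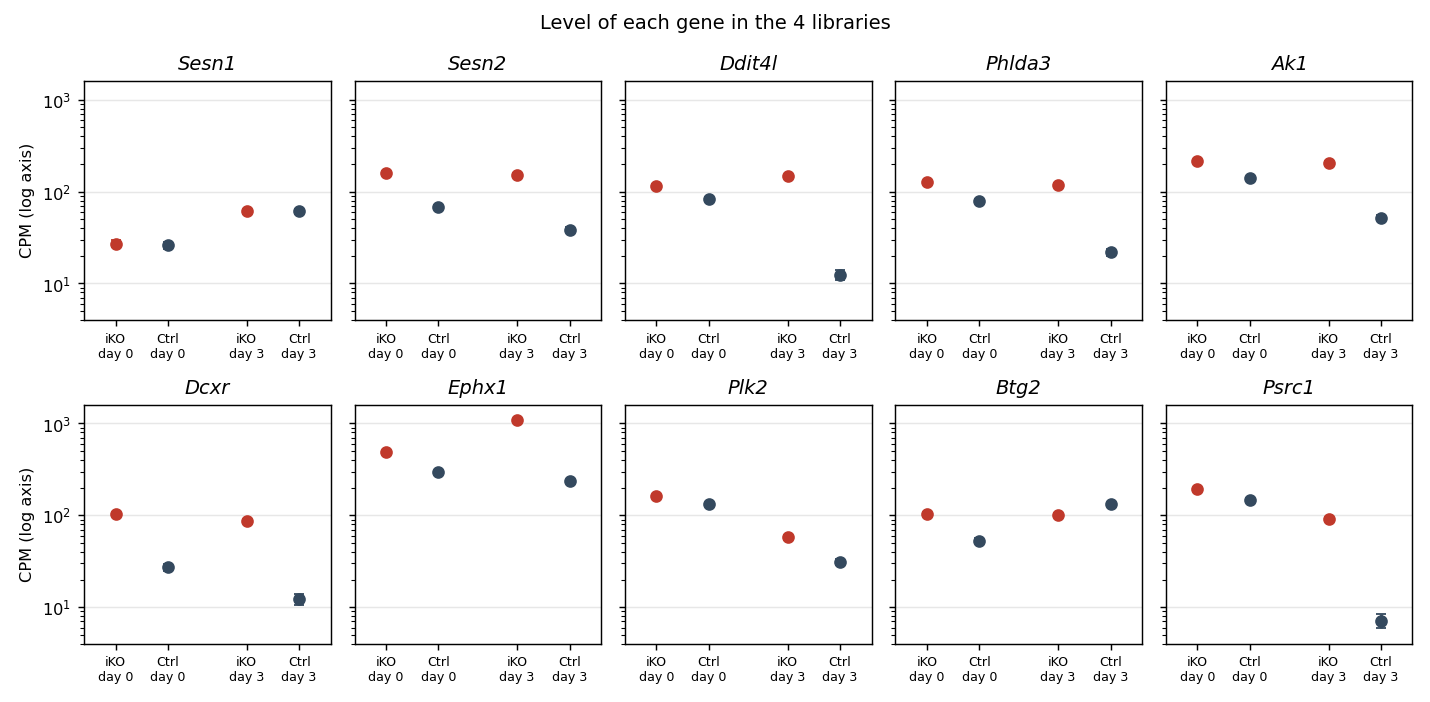
Level of each of the 10 genes in CPM (log axis) in the iKO (red) and Ctrl (blue) libraries at day 0 and day 3, 1 library per point. Bars are 95% Poisson counting intervals and are mostly hidden by the points; at day 3 Ctrl lies far below iKO for Psrc1 (91.6 CPM in iKO, 7.06 CPM in Ctrl) and Ddit4l (147 CPM in iKO, 12.5 CPM in Ctrl), while the Sesn1 points coincide.

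**Figure D2:**
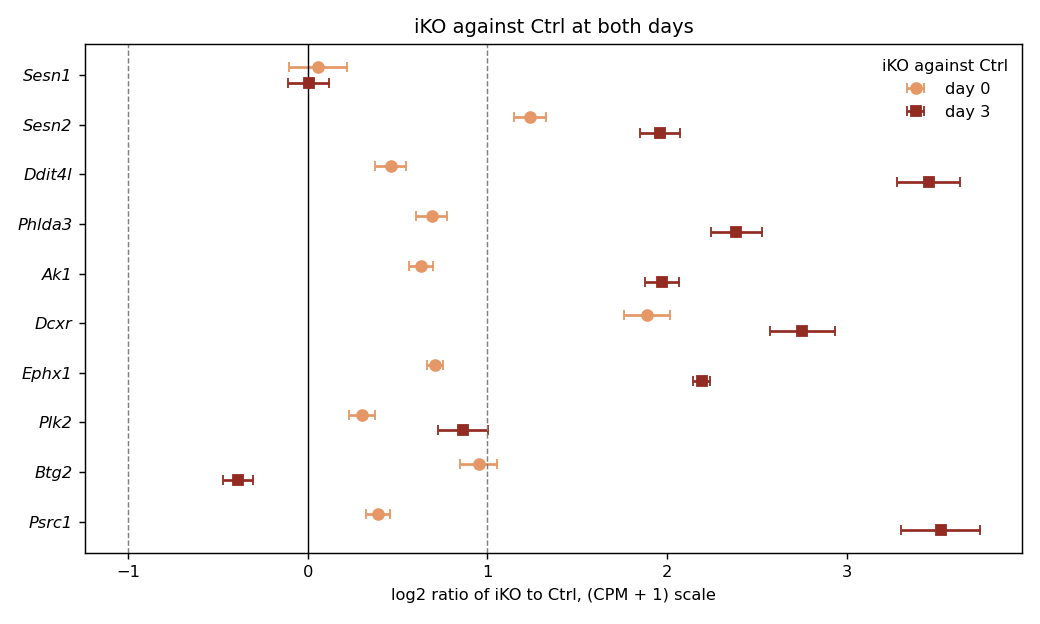
Log2 ratio of iKO to Ctrl on the (CPM + 1) scale for each gene at day 0 (light circles) and day 3 (dark squares), with 95% counting intervals. Dashed lines mark 2-fold; 7 genes lie past the upper line at day 3 and 2 at day 0, and Btg2 lies to the right of 0 at day 0 (0.95) and to the left at day 3 (-0.39).

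The 4 genes of nutrient and growth-factor signalling differed widely among themselves, with log2 ratios of iKO to Ctrl at day 3 between 0.01 (Sesn1) and 3.45 (Ddit4l). Sesn1 (gene ID 140742, chr10:41810574-41908436, plus strand) encodes sestrin 1, a GATOR2-binding inhibitor of mTORC1. At day 0 the gene had 27.2 CPM in iKO and 26.1 CPM in Ctrl, and at day 3 it had 61.1 CPM in iKO and 60.8 CPM in Ctrl. The genotypes gave nearly the same level on each day, and both libraries were higher at day 3. iKO over Ctrl was 1.04-fold at day 0 (0.925 to 1.17) and 1.00-fold at day 3 (0.926 to 1.09), and both intervals include equality. In the GENCODE annotation Sesn1 overlaps the locus 9930024M15Rik, and Sesn2, described next, overlaps the non-coding gene Gm12981, each on the same strand. Neither locus is listed under that name in the count files, and reads from the shared bases cannot be told apart.

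Sesn2 (gene ID 230784, chr4:132492804-132510456, minus strand) encodes sestrin 2, a leucine sensor that binds GATOR2. Reads for it at day 0 came to 161 CPM in iKO and 67.5 CPM in Ctrl, and at day 3 to 153 CPM in iKO and 38.6 CPM in Ctrl. Both iKO libraries stood above both Ctrl libraries, and the lowest level was that of Ctrl at day 3. The level in iKO was 2.38-fold that in Ctrl at day 0 (2.24 to 2.54) and 3.97-fold at day 3 (3.66 to 4.30). The third sestrin gene, Sesn3, which is known as a target of FoxO factors, had 26.7 CPM in iKO and 18.1 CPM in Ctrl at day 0, and 94.5 CPM in iKO and 116 CPM in Ctrl at day 3. The 3 sestrin genes thus had log2 ratios of iKO to Ctrl at day 3 of 0.01 (Sesn1), 1.96 (Sesn2) and -0.29 (Sesn3).

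Ddit4l (gene ID 73284, chr3:137623672-137628332, plus strand) encodes REDD2, an inhibitor of mTORC1 signalling that is related to REDD1. Its level at day 0 was 116 CPM in iKO and 83.7 CPM in Ctrl, and at day 3 it was 147 CPM in iKO and 12.5 CPM in Ctrl. A single library, Ctrl at day 3, lay far below the others. As a ratio of iKO to Ctrl this was 1.38-fold at day 0 (1.30 to 1.47) and 11.8-fold at day 3 (10.3 to 13.4). Ddit4, the gene of REDD1, had 79.2 CPM in iKO and 39.5 CPM in Ctrl at day 0, and 95.6 CPM in iKO and 89.2 CPM in Ctrl at day 3. For this pair of paralogs the larger log2 ratio belonged to Ddit4 at day 0 (0.99, against 0.46 for Ddit4l) and to Ddit4l at day 3 (3.45, against 0.10 for Ddit4).

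Phlda3 (gene ID 27280, chr1:135766085-135769134, plus strand) encodes a small pleckstrin homology protein that competes with Akt for membrane lipids and so restrains Akt. At day 0 the gene had 127 CPM in iKO and 78.4 CPM in Ctrl, and at day 3 it had 118 CPM in iKO and 21.8 CPM in Ctrl. The iKO libraries were alike on both days and the Ctrl library at day 3 was the lowest. The ratio of iKO to Ctrl was 1.62-fold at day 0 (1.52 to 1.72) and 5.41-fold at day 3 (4.88 to 6.01). Its paralog Phlda1 stood on the other side of Ctrl at day 3, with 12.5 CPM in iKO and 38.2 CPM in Ctrl, which is 3.05-fold lower in iKO.

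All 3 genes of metabolic enzymes were higher in iKO at day 3, and 1 of them, Dcxr, was higher by at least 2-fold at day 0 as well. Ak1 (gene ID 11636, chr2:32621758-32635058, plus strand) encodes the cytosolic adenylate kinase, which balances ATP, ADP and AMP. Reads for it at day 0 came to 216 CPM in iKO and 139 CPM in Ctrl, and at day 3 to 207 CPM in iKO and 52.1 CPM in Ctrl. Ctrl at day 3 was again the low library. iKO over Ctrl was 1.55-fold at day 0 (1.48 to 1.62) and 3.98-fold at day 3 (3.71 to 4.26). The adenylate kinase genes Ak3 and Ak4, whose products lie in mitochondria, had log2 ratios of iKO to Ctrl at day 3 of 0.18 and 0.52.

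Dcxr (gene ID 67880, chr11:120724546-120727284, minus strand) encodes dicarbonyl and L-xylulose reductase, an NADPH-using enzyme of the uronate cycle. Its level at day 0 was 104 CPM in iKO and 27.3 CPM in Ctrl, and at day 3 it was 87.5 CPM in iKO and 12.1 CPM in Ctrl. Each iKO library stood well above both Ctrl libraries. Dcxr had the largest day 0 ratio of the 10 genes, 3.80-fold (3.46 to 4.18), and a day 3 ratio of 7.21-fold (6.30 to 8.28).

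Ephx1 (gene ID 13849, chr1:180989556-181017569, minus strand) encodes microsomal epoxide hydrolase, which detoxifies reactive epoxides. At day 0 the gene had 489 CPM in iKO and 298 CPM in Ctrl, and at day 3 it had 1083 CPM in iKO and 236 CPM in Ctrl. The high library was iKO at day 3. As a ratio of iKO to Ctrl this was 1.64-fold at day 0 (1.59 to 1.69) and 4.58-fold at day 3 (4.44 to 4.73). Ephx2, the gene of soluble epoxide hydrolase, was low at day 0, with 5.00 CPM in iKO and 1.87 CPM in Ctrl. At day 3 Ephx2 had 42.8 CPM in iKO and 30.6 CPM in Ctrl, a log2 ratio of 0.47 against 2.19 for Ephx1.

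The genes of growth arrest and division gave 3 different patterns. Plk2 (gene ID 20620, chr13:110395044-110400844, plus strand) encodes a polo-like kinase that acts in centriole duplication and stress signalling. Reads for it at day 0 came to 162 CPM in iKO and 131 CPM in Ctrl, and at day 3 to 57.6 CPM in iKO and 31.2 CPM in Ctrl. Both genotypes were lower at day 3, and iKO lay above Ctrl on each day. The ratio of iKO to Ctrl was 1.24-fold at day 0 (1.18 to 1.30) and 1.85-fold at day 3 (1.67 to 2.04), under the 2-fold size used here. The mitotic paralog Plk1 had a log2 ratio of iKO to Ctrl of -0.83 at day 0 and -0.10 at day 3.

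Btg2 (gene ID 12227, chr1:134074865-134079155, minus strand) encodes an antiproliferative protein that recruits the CCR4-NOT deadenylase. Its level at day 0 was 103 CPM in iKO and 52.97 CPM in Ctrl, and at day 3 it was 101 CPM in iKO and 132 CPM in Ctrl. The iKO libraries were alike, while the Ctrl libraries lay below them at day 0 and above them at day 3. The level in iKO was 1.95-fold that in Ctrl at day 0 (1.81 to 2.10) and 1.31-fold lower at day 3 (1.24 to 1.39). Btg1, the closest paralog, had the same order of the genotypes on each day, with 78.0 CPM in iKO and 54.1 CPM in Ctrl at day 0, and 54.9 CPM in iKO and 75.1 CPM in Ctrl at day 3. Neuronal markers were lower in iKO at day 3 as Btg2 was, with a sum of 931 CPM in iKO and 1732 CPM in Ctrl, and lower at day 0 as well, with 873 CPM in iKO and 937 CPM in Ctrl, where Btg2 was higher. Insm1, a gene of neurogenic progenitors, had 59.5 CPM in iKO and 52.7 CPM in Ctrl at day 0, and 9.65 CPM in iKO and 20.2 CPM in Ctrl at day 3. In Ctrl, Insm1 was 2.60-fold lower at day 3 than at day 0, while Btg2 was 2.49-fold higher. Neurod1, also of neurogenic progenitors, had 71 counts in iKO and 20 in Ctrl at day 0, and 1 and 4 at day 3. Neurog2 and Eomes, under a mean of 1 CPM and named after their values were seen, were higher at day 3 in Ctrl. Neurog2 had 0.15 CPM there at day 0 and 2.39 CPM at day 3, and Eomes 0.74 and 1.19 CPM. In iKO Neurog2 had 0.28 CPM at day 0 and 0.21 CPM at day 3, and Eomes 0.69 and 0.74 CPM. These levels are low, and no counting interval is given for them. The neuronal sum was also higher at day 3 in Ctrl, and it differed by less between the days in iKO. The part of neurons and such progenitors in the Btg2 result was not tested.

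Psrc1 (gene ID 56742, chr3:108383804-108388231, plus strand) encodes a microtubule-binding protein of the mitotic spindle, also called DDA3. At day 0 the gene had 194 CPM in iKO and 148 CPM in Ctrl, and at day 3 it had 91.6 CPM in iKO and 7.06 CPM in Ctrl. Both genotypes were lower at day 3, Ctrl by far the more. iKO over Ctrl was 1.31-fold at day 0 (1.25 to 1.38) and 12.97-fold at day 3 (10.9 to 15.5), the largest day 3 ratio of the 10 genes. Of a list of 15 mitosis genes, 0 were higher and 0 lower in iKO at day 3, against 6.27% and 4.76% of all genes. With so few genes these counts lie near those shares. Their median log2 ratio was -0.16. At day 0 all 15 mitosis genes had a lower level in iKO, against 7328 of all 12976 genes. Of the 15, 0 were past 2-fold, against 0.331% of all genes lower. The median log2 ratio of the 15 was -0.75, while Psrc1 had a log2 ratio of 0.39.

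The same values were then read along the days within a genotype. In iKO, 2 of the 10 genes were higher at day 3 than at day 0 (Sesn1 and Ephx1) and 2 lower (Plk2 and Psrc1), against 11.2% of all genes higher and 11.4% lower. In Ctrl, 2 were higher (Sesn1 and Btg2) and 6 lower (Ddit4l, Phlda3, Ak1, Dcxr, Plk2 and Psrc1), against 14.6% higher and 15.1% lower. The median log2 ratio of day 3 to day 0 was -0.06 over the 10 genes in iKO and -1.25 in Ctrl, against -0.01 and -0.02 over all genes. Each of these ratios uses a library that also enters a ratio of iKO to Ctrl, so the 2 views are not separate evidence.

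**Figure D3:**
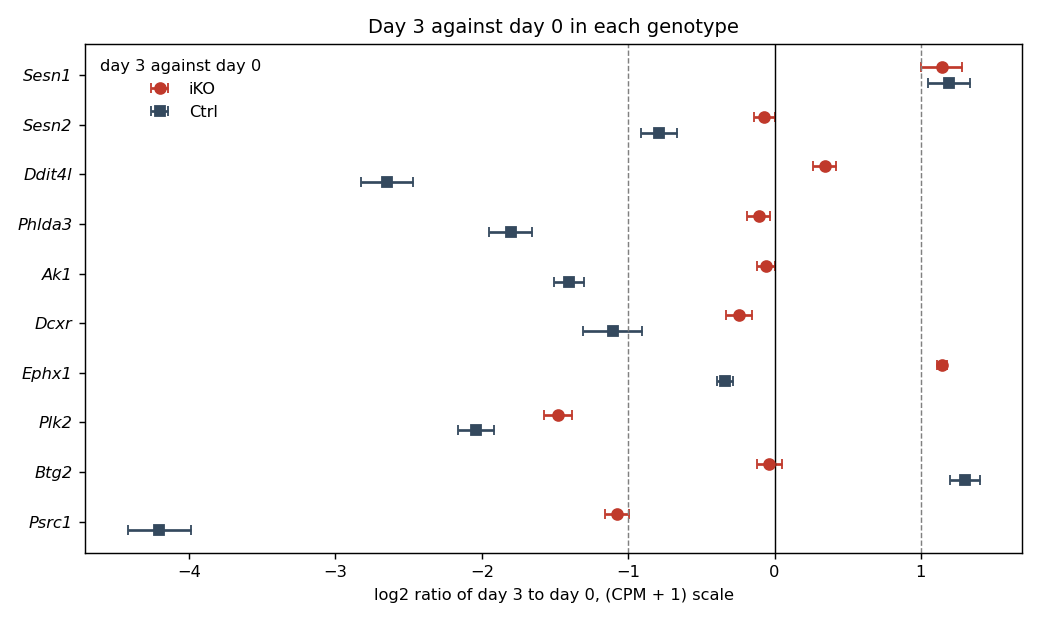
Log2 ratio of day 3 to day 0 on the (CPM + 1) scale for each gene in iKO (red circles) and Ctrl (blue squares), with 95% counting intervals and dashed lines at 2-fold. The Ctrl values of Psrc1 (-4.20), Ddit4l (-2.65) and Phlda3 (-1.80) lie far to the left of their iKO values (-1.08, 0.34 and -0.11), and the values of Sesn1 lie together.

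Sesn1 was the only one of the 10 genes that was higher at day 3 in both genotypes, 2.25-fold in iKO (2.04 to 2.49) and 2.33-fold in Ctrl (2.11 to 2.59). Sesn3 was higher at day 3 as well, 3.54-fold in iKO and 6.37-fold in Ctrl. Sesn2 differed by little between the days in iKO, with a log2 ratio of -0.07, and in Ctrl it was 1.75-fold lower at day 3 (1.60 to 1.91). The sestrin genes thus had no common direction along the days.

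Phlda3, Ak1 and Dcxr kept nearly the same level on both days in iKO, with log2 ratios of day 3 to day 0 between -0.24 and -0.06. In Ctrl they were lower at day 3 by 3.60-fold (Phlda3, 3.24 to 4.01), 2.68-fold (Ak1, 2.49 to 2.87) and 2.25-fold (Dcxr, 1.93 to 2.63). Ddit4l had the same contrast in a wider form, 1.27-fold higher at day 3 in iKO (1.20 to 1.34) and 6.70-fold lower in Ctrl (5.87 to 7.68). Ephx1 was 2.22-fold higher at day 3 in iKO (2.17 to 2.27) and 1.26-fold lower in Ctrl (1.22 to 1.31).

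Plk2 was lower at day 3 in both genotypes, 2.82-fold in iKO (2.63 to 3.02) and 4.21-fold in Ctrl (3.86 to 4.60). Psrc1 was 2.12-fold lower at day 3 in iKO (2.003 to 2.24) and 20.9-fold lower in Ctrl (17.7 to 24.9). Levels of the 15 mitosis genes were lower at day 3 in both genotypes. In each, 15 of 15 were past 2-fold, against 11.4% of all genes in iKO and 15.1% in Ctrl. Their median log2 ratios were -3.81 in iKO and -4.18 in Ctrl. In Ctrl the log2 ratio of Psrc1, -4.20, was close to that median, and in iKO, at -1.08, it was far above it. Btg2 had a log2 ratio of day 3 to day 0 of -0.04 in iKO and was 2.49-fold higher at day 3 in Ctrl (2.32 to 2.68).

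The change of the genotype ratio between the days was taken as the log2 ratio of iKO to Ctrl at day 3 minus that at day 0. It was at least 1 for 5 of the 10 genes (Ddit4l, Phlda3, Ak1, Ephx1 and Psrc1), against 3.71% of all genes, and -1 or below for 1 (Btg2), against 5.50%. The largest differences were those of Psrc1, 3.13 (2.90 to 3.36), and Ddit4l, 2.99 (2.80 to 3.19). Phlda3 had 1.69, Ephx1 1.48 and Ak1 1.34. Dcxr (0.86), Sesn2 (0.72) and Plk2 (0.56) had smaller differences in the same direction, Sesn1 had -0.05, and Btg2 had -1.34 (-1.47 to -1.21).

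Levels of different genes were set side by side as FPKM, which divides fragments by transcript length and library size. Ephx1 had the highest FPKM of the 10 in every library, 298 in iKO and 167 in Ctrl at day 0, and 603 in iKO and 139 in Ctrl at day 3. In iKO at day 0 it was followed by Dcxr (121) and Psrc1 (118), whose counting intervals overlap, then Ak1 (109), Phlda3 (92.4), Sesn2 (63.7) and Plk2 (61.0), which overlap, Ddit4l (44.8), Btg2 (35.3) and Sesn1 (10.2). In Ctrl at day 0 Psrc1 (82.4), Ak1 (64.8), Phlda3 (52.1) and Plk2 (45.1) followed, and Dcxr (29.2) stood level with Ddit4l (29.6). Sesn2 (24.5), Btg2 (16.5) and Sesn1 (9.05) had the lowest FPKM there.

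In iKO at day 3 the FPKM of Ak1 (95.5) and Dcxr (93.5) overlapped, those of Sesn2 (55.4), Ddit4l (51.8) and Psrc1 (51.0) each overlapped with the next, and Phlda3 (78.1) lay between the groups. Btg2 (31.4), Sesn1 (21.4) and Plk2 (19.8) were lowest. In Ctrl at day 3 the order was another one, with Btg2 (43.5) second, then Ak1 (25.6) and Sesn1 (22.8). Phlda3 (15.3), Sesn2 (14.8), Dcxr (13.8) and Plk2 (11.3) each overlapped with the next, and Ddit4l (4.67) and Psrc1 (4.16) came last. Sesn1, lowest of the 10 in both libraries at day 0, was thus above Phlda3, Sesn2 and Dcxr in Ctrl at day 3.

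The files also split each gene's expected counts over RefSeq transcript models. Sesn2, Ddit4l, Phlda3, Plk2 and Btg2 had 1 model each, and at least 98.5% of the Ephx1 counts fell to NM_010145.3 in each library. Sesn1, Ak1, Dcxr and Psrc1 had several. Starts, exons and codons given below are those of the GENCODE transcript matched to a model. GENCODE starts can differ from RefSeq starts. Where models share most exons, the split is an estimate of the authors' quantifier, and the counting intervals do not cover its error.

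Sesn1 has a pair of models whose starts in GENCODE lie 77504 bases apart. The upstream one, chr10:41809935, lies before the RefSeq start of the gene given above. NM_001013370.2, which starts at chr10:41887439 behind the promoter match printed above and codes for 492 codons, held 62.5% of the Sesn1 counts in iKO and 67.2% in Ctrl at day 0, and 74.2% in iKO and 77.8% in Ctrl at day 3. The upstream model, NM_001162908.1, codes for 551 codons and held the rest. Between the days the NM_001013370.2 counts were 2.67-fold higher at day 3 in iKO and 2.70-fold higher in Ctrl, against 1.55-fold and 1.58-fold for NM_001162908.1. Neither model separated the genotypes by more than counting error, with ratios of iKO to Ctrl at day 3 of 0.957 (0.872 to 1.05) for NM_001013370.2 and 1.17 (0.991 to 1.39) for NM_001162908.1.

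Ak1 has 4 models. NM_021515.3, of 210 codons, held 76.3% of the counts in iKO and 66.8% in Ctrl at day 0, and 56.0% in iKO and 51.7% in Ctrl at day 3. NM_001198791.1 starts 4067 bases upstream in GENCODE and codes for 194 codons. It held 6.83% in iKO and 3.60% in Ctrl at day 0, and 22.0% in iKO and 22.5% in Ctrl at day 3. The counts of NM_001198791.1 were 3.09-fold higher at day 3 in iKO and 2.34-fold higher in Ctrl, while those of NM_021515.3 were 1.42-fold lower at day 3 in iKO and 3.46-fold lower in Ctrl. Both models had more counts in iKO than in Ctrl on each day, 4.31-fold for NM_021515.3 (3.92 to 4.74) and 3.89-fold for NM_001198791.1 (3.36 to 4.51) at day 3. The predicted model XM_006497624.3 was the exception at day 0, 1.38-fold lower in iKO (1.23 to 1.55), and it was 3.05-fold higher in iKO at day 3 (2.61 to 3.57).

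Dcxr has 3 models, and each had more counts in iKO than in Ctrl on both days. At day 0 the ratios were 2.76-fold for NM_026428.2, 4.87-fold for XM_006534027.3 and 5.03-fold for XM_006534029.3. At day 3 they were 5.33-fold for NM_026428.2, 12.4-fold for XM_006534027.3 and 7.18-fold for XM_006534029.3, the XM_006534027.3 value on 257 counts in iKO and 22 in Ctrl. The share of XM_006534029.3 was 45.1% in iKO and 34.1% in Ctrl at day 0, and 67.8% in iKO and 68.3% in Ctrl at day 3.

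Psrc1 has a pair of models with the same coding exons and, in GENCODE, starts 20 bases apart. NM_019976.3 held 75.8% of the counts in iKO and 76.9% in Ctrl at day 0, and 80.3% in iKO and 26.1% in Ctrl at day 3. Ctrl at day 3 was the only library in which NM_001190161.1 held most, 105 counts against 37 for NM_019976.3. The ratio of iKO to Ctrl at day 3 was 39.9-fold for NM_019976.3 (28.8 to 57.0) and 3.46-fold for NM_001190161.1 (2.77 to 4.35). Of the 8 exons of each model, 6 have identical coordinates in both, and the models have 1686 (NM_019976.3) and 1687 (NM_001190161.1) exonic bases. The part of the quantifier's division of shared reads in the difference between those ratios was not tested.

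**Figure D4:**
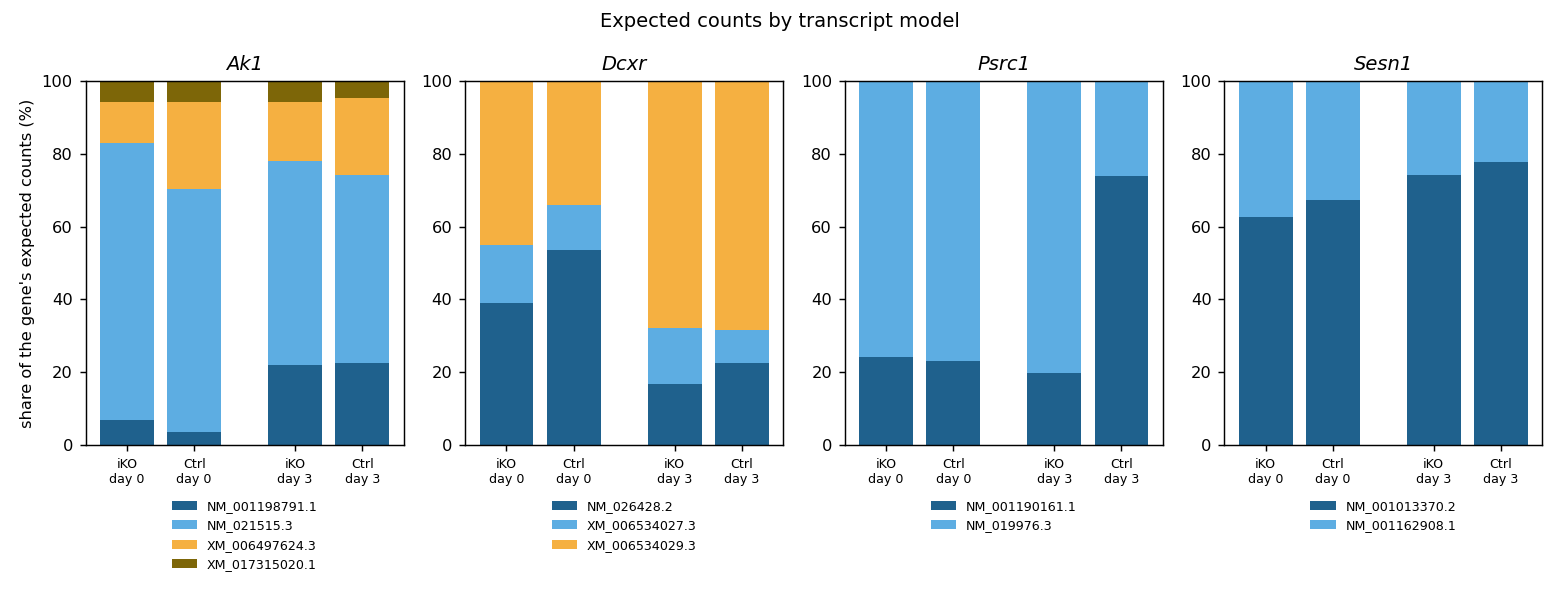
Share of a gene's expected counts (%) that fell to each RefSeq transcript model of Ak1, Dcxr, Psrc1 and Sesn1 in the 4 libraries. Ak1 model NM_001198791.1 holds 6.83% in iKO and 3.60% in Ctrl at day 0 but 22.0% in iKO and 22.5% in Ctrl at day 3, and the Psrc1 split is turned round in Ctrl at day 3 (26.1% for NM_019976.3).

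Other targets of p53, 40 genes of which 38 passed the minimum level, were listed for comparison. At day 0, 8 of the 38 were higher in iKO and 0 lower, with a median log2 ratio of 0.56, against 2.67% of all genes higher and 0.331% lower. At day 3, 18 of the 38 were higher and 0 lower, with a median log2 ratio of 0.96, against 6.27% of all genes higher and 4.76% lower. Within this list the genes of apoptosis had 10 of 12 higher at day 3 with a median of 1.84, those of growth arrest and feedback 5 of 9 with 1.08, those of metabolism and redox 2 of 12 with 0.51, and those of DNA repair 1 of 5 with 0.41. These lists were drawn up with results of the same libraries known, and are no separate evidence of a direction.

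Cdkn1a, which encodes p21, a cyclin-dependent kinase inhibitor, had 926 CPM in iKO and 513 CPM in Ctrl at day 0, and 578 CPM in iKO and 43.1 CPM in Ctrl at day 3, a day 3 ratio of 13.4-fold (12.5 to 14.4). Ctrl at day 3 was the low library here as it was for Ddit4l, Phlda3 and Psrc1. Ccng1, the gene of cyclin G1, had 1084 CPM in iKO and 573 CPM in Ctrl at day 0, and 921 CPM in iKO and 179 CPM in Ctrl at day 3. Among the metabolic targets, Gdf15, a secreted stress cytokine, had 108 counts in iKO and 8 in Ctrl at day 3, and Cpt1c, a neuronal carnitine palmitoyltransferase, was 2.78-fold higher in iKO at day 3 (2.61 to 2.95). The apoptotic targets Pmaip1 (Noxa) and Fas (a death receptor) were 9.90-fold (8.05 to 12.3) and 9.05-fold (6.76 to 12.3) higher in iKO at day 3. Of the repair polymerases, Polk was 2.92-fold higher in iKO at day 3 (2.49 to 3.44), and Polh had a log2 ratio of -0.71 at day 0 and 0.49 at day 3.

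Of 12 measured paralogs of the 10 genes, 1 was higher in iKO at day 0 (Ephx2) and 0 lower, with a median log2 ratio of 0.14, against 2.67% higher and 0.331% lower over all genes. At day 3, 0 were higher and 1 was lower (Phlda1), with a median of -0.04, against 6.27% higher and 4.76% lower. With so few genes these counts lie near the shares over all genes. The partners of the sestrins, the GATOR, CASTOR and Rag genes, had 0 of 11 higher and 1 lower on each day, and the lower one was Seh1l itself. Their median log2 ratio was -0.09 at day 0 and -0.04 at day 3, and apart from Seh1l none reached 2-fold. Their log2 ratios at day 3 included 0.58 for Rragc, which encodes a Rag GTPase, -0.57 for Castor2, of the arginine sensor family, and -0.53 for Mios, a GATOR2 subunit, of which Castor2 and Mios were named after their values were seen.

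Several of the 10 genes are also known to respond to other stress factors, so lists of those factors' targets were read beside them. Sesn2 is a known target of ATF4 and of NRF2. Counts for these lists stand against the same shares of all genes, 2.67% higher and 0.331% lower at day 0 and 6.27% higher and 4.76% lower at day 3. Of 10 ATF4 targets, 0 were called at day 0 and 4 were higher in iKO at day 3, with medians of 0.07 and 0.85. Chac1, a glutathione-degrading enzyme, was 8.35-fold higher in iKO at day 3 (5.89 to 12.2), and Atf5, itself a transcription factor, 4.95-fold higher (4.58 to 5.36). Of 8 NRF2 targets, 0 were called at day 0 and 3 were higher in iKO at day 3, with medians of 0.24 and 0.89. Hmox1, the gene of haem oxygenase 1, had 85.2 CPM in iKO and 43.4 CPM in Ctrl at day 0, and 383 CPM in iKO and 75.5 CPM in Ctrl at day 3. Like Ephx1, Hmox1 had its highest level in iKO at day 3. Plk2 and Btg2 are known to respond quickly to growth signals, and 5 of 10 genes of the immediate early list were higher in iKO at day 3 and 1 was lower, with a median of 0.77. At day 0 none of these 10 was called, and their median was -0.21. The part of these other responses in the values of the 10 genes was not tested.

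**Figure D5:**
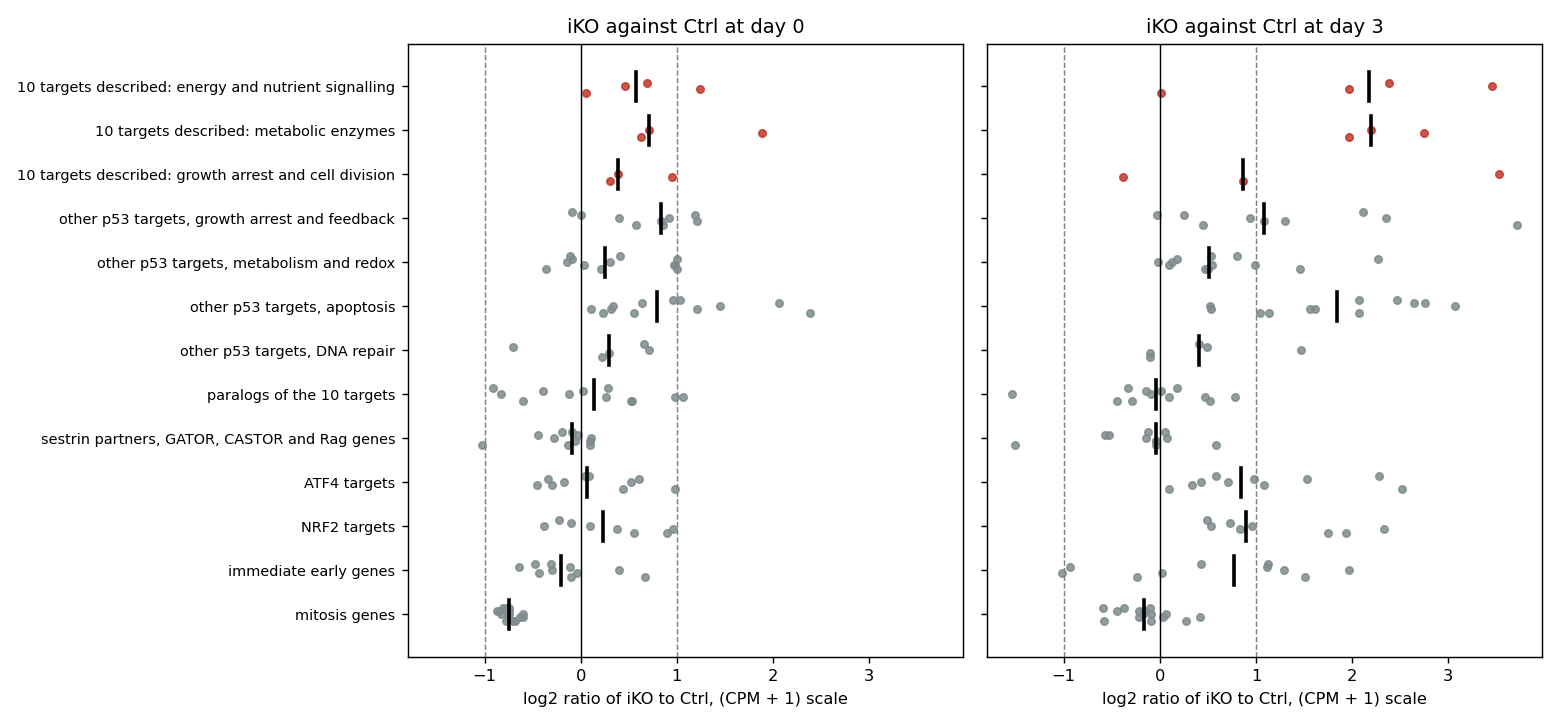
Log2 ratio of iKO to Ctrl on the (CPM + 1) scale at day 0 (left) and day 3 (right), 1 point per measured gene, for the 10 genes in their role groups (red) and for the other lists (grey), with the median of each list as a black bar and dashed lines at 2-fold. The list of neurogenic progenitor genes is not shown. At day 3 the medians of signalling genes (2.17), of enzymes (2.19) and of the other p53 targets of apoptosis (1.84) and of growth arrest and feedback (1.08) lie beyond 2-fold, and the other medians, that of the 3 arrest and division genes described here (0.86) included, lie short of it.

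The genes with profiles most like the mean of the 10 were found among the other 11205 genes that have a symbol and a mean of 5 CPM or more, by the Euclidean distance of log2(CPM + 1) centred on each gene's mean over the 4 libraries. The 5 nearest were Gbp3 (distance 0.135), Akap2 (0.143), Spsb1 (0.166), Cacng8 (0.174) and Hbegf (0.194). Akap2, an anchor of protein kinase A, had 114 CPM in iKO and 70.5 CPM in Ctrl at day 0, and 99.7 CPM in iKO and 28.7 CPM in Ctrl at day 3. Hbegf, an EGF receptor ligand, had 101 CPM in iKO and 72.0 CPM in Ctrl at day 0, and 101 CPM in iKO and 27.2 CPM in Ctrl at day 3. Both had their lowest level in Ctrl at day 3, as the mean of the 10 did. They were picked for likeness to that mean, so the shared low library follows from the choice. Of the 10 genes themselves, Ak1 lay nearest to that mean (0.155) and Sesn2 (0.408) and Phlda3 (0.498) next, while Btg2 (2.03), Sesn1 (2.27) and Psrc1 (2.35) lay farthest. With 4 libraries a profile holds little information, and these distances are a description.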

How the data were processed

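Total RNA of 4 libraries, 1 per group, was analysed, with groups taken from the titles and genotype labels. The submitters' processing notes name HISAT, Bowtie2, StringTie and the mm10 build, with no tool versions. No source used here gives the quantifier, its use of strand, the annotation release or a filter. The authors deposited 1 row per RefSeq transcript (55122), giving its expected count and 1 expression value. The deposited files do not name the unit of that value, which was read as FPKM since its ratio to the count scaled by length and library size was nearly constant (library medians 0.997 to 0.998). The authors' deposited tables hold log2 ratios for iKO over Ctrl with a q-value (FDR), made from single libraries, and that FDR was not used.

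Expected counts were summed per gene, rounded, and scaled with edgeR 4.0.16 (TMM, factors 0.962 to 1.06) in R 4.3.3. Genes under a mean of 1 CPM (4645) were left out of the comparisons. Log2 ratios are log2 of (CPM + 1) in the group named first over (CPM + 1) in the other, which understates ratios of low genes. Printed folds are ratios of CPM without the pseudocount, with exact conditional (Clopper-Pearson) 95% intervals from scipy 1.17.1. The intervals cover counting error only, because each group has 1 library. Reads may also be copies of the same molecule, which would make the intervals too narrow. The calculation was tested on simulated data. Symbols and gene coordinates came from RefSeq GRCm38.p6 (17498 IDs matched), and promoter sequences from the RefSeq table of that build. Starts, exons and codons of transcript models came from the GENCODE transcripts matched to them.

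The 10 genes, the lists and the comparisons were chosen with earlier results of these data known. Named were all 10 genes, Seh1l and Esr1, the 2 genes of each other list with the largest absolute day 3 ratio, paralogs, and the 5 nearest profiles. Kif11 and Bub1 (mitosis) were also named by this rule, with log2 ratios at day 3 of -0.59 and -0.59, as were Junb (4.97-fold higher in iKO) and Fos (3.09-fold), Nqo1 (3.98-fold), Btg3 (1.78-fold) and Neurod1 (1 count in iKO and 4 in Ctrl). Alternatives were other scalings, pseudocounts, level filters, FPKM and unrounded counts.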

Additional observations from a re-analysis of the deposited data

Results flagged for a closer look

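Ddit4l moved in opposite directions along the days in the 2 genotypes. Its log2 ratio of day 3 to day 0 was 0.34 in iKO and -2.65 in Ctrl. This difference was not tested, since each genotype had 1 library per day.

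Ephx1 also had opposite directions, with a log2 ratio of day 3 to day 0 of 1.15 in iKO and -0.34 in Ctrl. The difference was likewise not tested.

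Btg2 had opposite genotype ratios on the 2 days. Its log2 ratio of iKO to Ctrl was 0.95 at day 0 and -0.39 at day 3, and the difference was not tested.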

How the results depend on the processing

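Of the 40 log2 ratios of the 10 genes, 38 kept their side of 2-fold under all 8 alternatives. Btg2 at day 0 ranged between 0.90 and 1.08, past 2-fold with library totals or FPKM, and Dcxr by day in Ctrl between -1.16 and -0.91, short of 2-fold with a pseudocount of 5. The Sesn1 ratio at day 3 crossed 0 (-0.08 to 0.01). Library totals moved the median of all genes at day 0 to 0.06 (-0.06 with TMM) and by day in iKO to -0.13 (-0.01 with TMM). The median of the 10 genes at day 0 was then 0.79 (0.78 with FPKM), and by day in iKO -0.20 with either. Counts over all genes depended more on the setting. At day 0, 706 were higher and 80 lower with a pseudocount of 0.1, 111 and 13 with 5, and 25 were lower with library totals and 19 with FPKM. At day 3, 430 were higher and 358 lower with a pseudocount of 5, and 477 higher with FPKM. By day, 932 were higher and 1474 lower in iKO with FPKM (1459 and 1485 as reported), and 1213 higher in Ctrl with a pseudocount of 5. The causes were not tested. By FPKM, 13 of 52 transcript shares left their counting interval. No paired analysis was possible because each group has 1 library, and for the same reason no replicate could be left out.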

Other observations

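The authors' deposited day 3 table lists 7 of the 10 genes. It has 1774 rows, beside 17621 genes in the whole series. The 10 genes were chosen with ratios of iKO to Ctrl known, so the 7 are not read against these numbers. The listed log2 ratios of iKO to Ctrl are 1.91 for Sesn2, 3.47 for Ddit4l, 2.35 for Phlda3 and 1.90 for Ak1. Those of Dcxr, Ephx1 and Psrc1 are 2.76, 2.11 and 3.61. The authors' deposited day 0 table, as used here, ends part way through its last row and lists Btg2 with a log2 ratio of 1.09. It is ordered by gene ID as text, and of the 10 genes only Ak1 and Btg2 have IDs that fall before its end. Ak1 is not listed in it, and the absence of genes with later IDs is not read.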
